A study of Homo sapiens with 18 samples.

Results

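The genes described here are 10 genes of iron uptake, transport and storage, followed through RNA-seq of K562 cells, a human erythroleukaemia line. They were chosen by name and function, at a time when earlier results of these data were known. TFRC, TFR2, STEAP3 and SLC11A2 stand for uptake, and SLC25A37, SLC25A38 and ABCB10 for the mitochondrion. FTH1 and FTL stand for storage, and IREB2 for sensing. All 10 of these genes were found among the 24407 genes of the count tables, and all 10 passed the filter on low counts. The study asked what a catalytically inactive Cas9 (dCas9) fused to the KRAB repressor domain changes in the transcriptome when a guide RNA (gRNA) brings it to HS2, an enhancer that lies far from the beta-globin genes it serves.

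The 18 libraries fell into 6 groups of 3. KRAB_no_gRNA expressed dCas9-KRAB alone, with no gRNA. KRAB_CR4 and KRAB_CR10 expressed dCas9-KRAB together with an HS2 gRNA, named CR4 or CR10. In dCas9_CR4 and dCas9_CR10 the same gRNAs were combined with plain dCas9, which lacks KRAB. These 5 groups shared lentiviral delivery in medium with 4 µg/ml polybrene and selection by puromycin at 1 µg/ml, started about 96 hours later. The cells of no_lentivirus received no virus, and whether they saw polybrene or puromycin is not given in the sources used here. The promoter that drives the constructs and the number of clones behind each library are likewise not given, and all groups come from the same cell line. Libraries carry a number from 1 to 3 within each group. The labels do not say whether a number marks a separate culture or a shared day, so p-values measure the spread between these libraries, which may be technical.

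Iron bound to transferrin enters cells through the transferrin receptor, is reduced in the endosome, and leaves it for the cytosol and the mitochondrion, where haem is made and iron-sulphur clusters are assembled. Surplus iron is stored inside the ferritin shell. Iron regulatory proteins sense a shortage of iron and bind a short stem-loop in messenger RNAs, the iron-responsive element. Bound in the 3′ untranslated region (UTR) of TFRC the element protects the message, and bound in the 5′ UTR of the ferritin messages it blocks their translation. Maturing erythroid cells take up large amounts of iron for haem and are known for a high level of the transferrin receptor.

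The stem-loops are shown because they are the sequence feature that members on opposite sides of iron handling share, and the choice of members did not use them. A script searched both UTRs of the GENCODE transcripts (GRCh38) that correspond to the accessions of the count tables, on the transcribed strand only, for a C, 5 bases, the loop CAGTGN and 5 bases that pair with the first 5, with at most 1 mismatched pair. A G opposite a T was counted as a pair, so a match without a mismatched pair can still hold G-T pairs, as that of FTL does. The capitals mark the bulged C and the 6 bases of the loop, and each sequence is written as DNA, 5′ to 3′, over 17 bases. The storage gene FTL held a match in its 5′ UTR at chr19:48965341-48965357, plus strand, and the uptake receptor TFRC held 4 in its 3′ UTR on the minus strand, at chr3:196050469-196050485, chr3:196050516-196050532, chr3:196050581-196050597 and chr3:196050985-196051001, printed below in that order. In SLC11A2 (chr12:50988275-50988291, minus strand) and IREB2 (chr15:78500975-78500991, plus strand) the match lay in the 3′ UTR and had 1 mismatched pair, whereas the matches of FTL and TFRC had none.
FTL: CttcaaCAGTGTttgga
TFRC: CgggaaCAGTGTttccc
TFRC: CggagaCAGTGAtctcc
TFRC: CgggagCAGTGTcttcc
TFRC: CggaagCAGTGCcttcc
SLC11A2: CagagcCAGTGTgtttc
IREB2: CtttcaCAGTGAtgagt

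A match was found in 0.841% of the 5′ UTRs and in 3.99% of the 3′ UTRs of the 18671 genes searched in the same way. FTH1 also matched in its 5′ UTR. The letters were not found in the UTRs searched of TFR2, STEAP3, SLC25A37, SLC25A38 and ABCB10, which says only that this pattern is not in those windows. The transcripts of both TFRC accessions of the count tables held all 4 of its sites. For SLC11A2, 5 of the 9 accessions corresponded to a transcript with its site, and some of these 5 shared the same transcript. A match is a description of sequence, and no protein binding was measured.

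Library totals lay between 22805964 and 34032962 counts (2 per fragment), and the lowest count of any of the 10 genes in any library was 1288. As a check of the labels, the HS2 target gene HBE1 was lower in KRAB_CR4 and KRAB_CR10 than in KRAB_no_gRNA, by log2 fold changes of -2.89 and -2.43 (edgeR adjusted p = 2.36e-09 and 3.00e-08). All 12 erythroid markers of K562 were detected at 1 CPM (a count scaled to a common library total) or more, with a summed level between 2092 and 4419 CPM over the 18 libraries. Markers of other blood lineages were low: 3 of 7 megakaryocyte markers, 3 of 7 myeloid markers and 2 of 6 lymphoid markers reached 1 CPM, and GP9 and MS4A1 were at 0. Over the 2000 genes of a principal component analysis, the lentiviral libraries with number 3 separated from the rest of their groups, and no_lentivirus library 2 lay farthest out of the 18 on the first component. Results that rest on them are given with and without them where that changes a call. In bulk RNA, fewer cells of a type and less RNA per cell cannot be told apart.

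Levels between genes are compared per kilobase of transcript, using the mean length of each gene's transcripts. FTL, the light chain of ferritin, led at a median of 1256 CPM per kilobase over the 18 libraries, followed by FTH1 at 486 and TFRC at 224. The ranges of these 3 genes did not overlap each other. Next came ABCB10 at 64.3 CPM per kilobase and TFR2 at 46.6. IREB2 at 35.0 and SLC25A38 at 34.1 CPM per kilobase lay closer to each other than their spread over libraries, with ranges of 29.8 to 42.9 and 24.0 to 41.7. STEAP3 followed at 25.8, SLC11A2 at 18.5 and SLC25A37 at 14.5 CPM per kilobase. From TFRC downwards the ranges of neighbours in this order overlapped, those of TFRC and ABCB10 only through no_lentivirus library 2, where TFRC was at 74.4 CPM per kilobase.

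The members also differed in how far they varied. TFRC spanned 3.81-fold between its lowest and highest library, STEAP3 2.92-fold and TFR2 2.14-fold, against 1.39-fold for FTH1 and 1.42-fold for FTL. The median span of the 9307 genes with a mean of at least 10 CPM was 1.76-fold. For TFRC, STEAP3 and TFR2 1 end of the span was no_lentivirus library 2. Over the 15 lentiviral libraries alone they spanned 1.99-fold, 2.26-fold and 1.61-fold, against 1.30-fold for FTH1, 1.42-fold for FTL and a median of 1.56-fold. TFR2 thus lay near that median. Within the lentiviral groups the SD of log2 CPM was 0.37 for TFRC and 0.42 for STEAP3, with a median of 0.19 over the same 9307 genes. The plot of CPM by group shows where that spread lies.

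**Figure D1:**
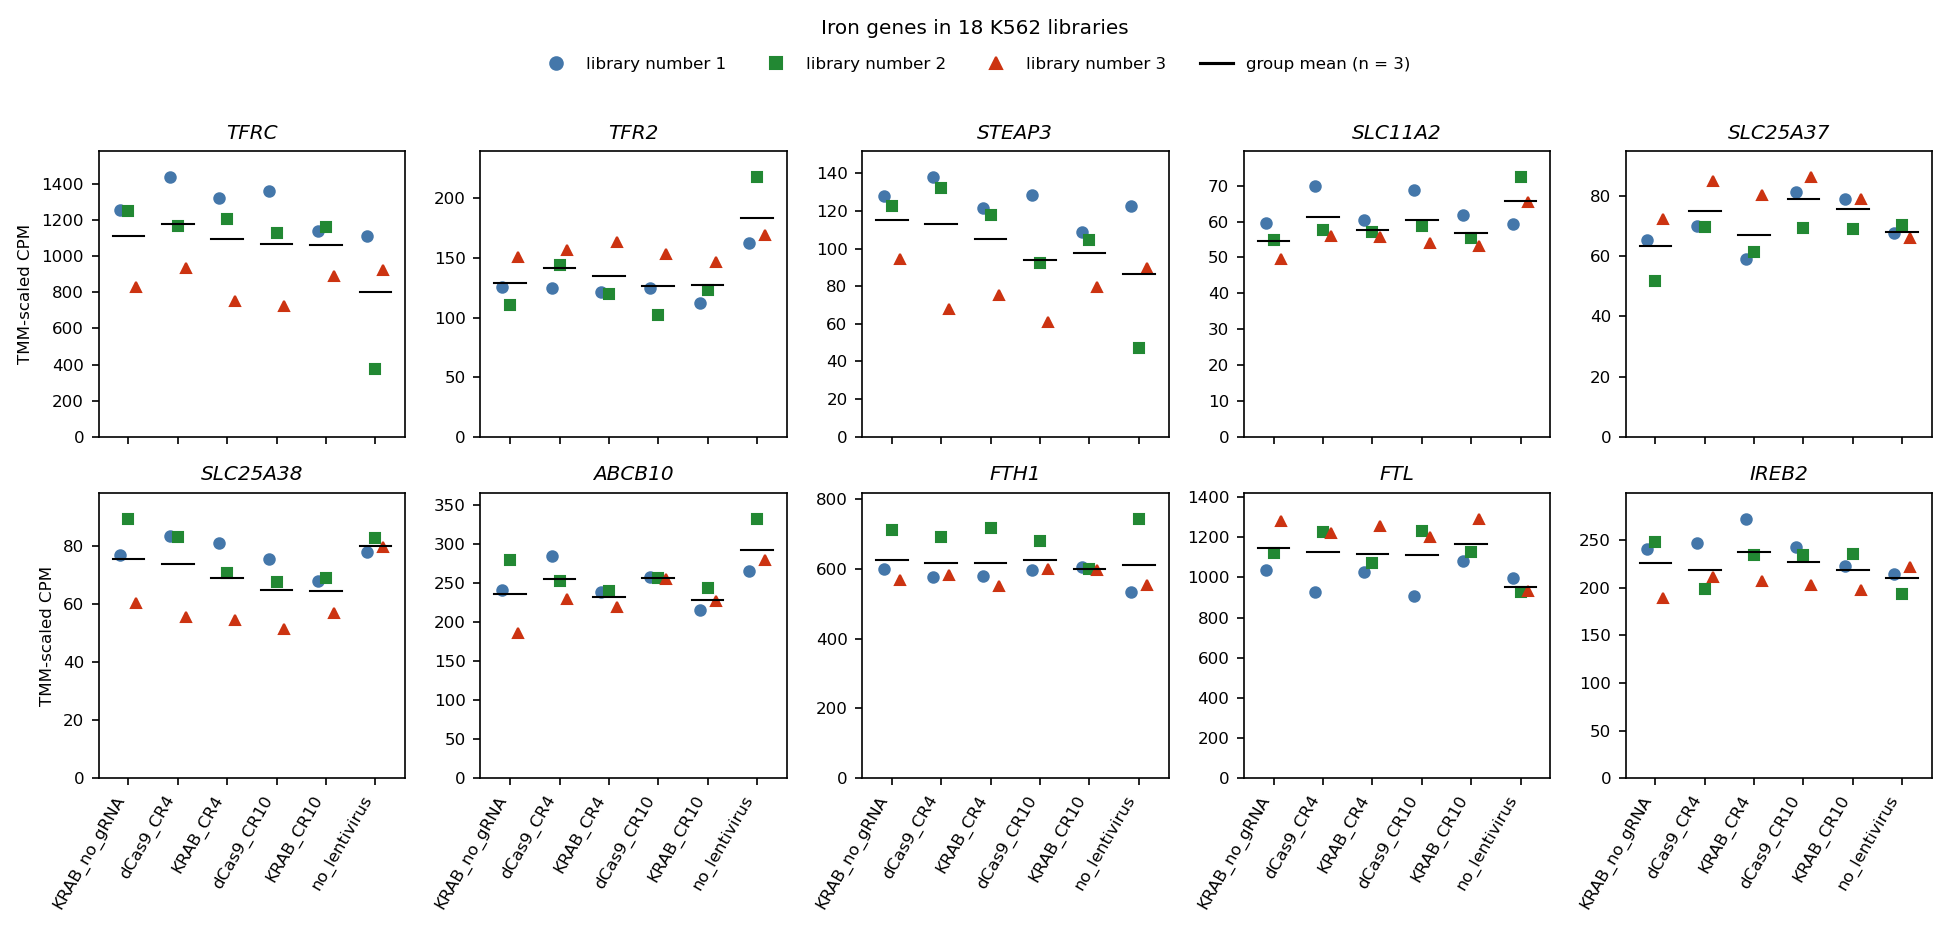
CPM (TMM-scaled, linear axis from 0) of the 10 iron genes in each of the 18 libraries, by group, with markers for the library number and a line for the group mean (n = 3). The lentiviral libraries numbered 3 lie lowest in all 5 lentiviral groups for TFRC, STEAP3, SLC11A2 and SLC25A38 and highest in all 5 for TFR2, while the group means lie close together.

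The first question was whether dCas9-KRAB at HS2 moved the iron genes, against dCas9-KRAB without a gRNA and against dCas9 with the same gRNA. None of the 10 genes passed in any of the 9 comparisons among lentiviral groups (edgeR quasi-likelihood test over 14720 genes, Benjamini-Hochberg adjusted p under 0.05; 0 of 90 values, adjusted p of 0.9987 or above). Few genes passed at all. The share of all genes called was 0.0204% in each of KRAB_CR4 and KRAB_CR10 against KRAB_no_gRNA and in each of KRAB_CR4 against dCas9_CR4 and KRAB_CR10 against dCas9_CR10. It was 0.0272% for KRAB against dCas9 over both gRNAs and 0% for dCas9_CR4 and dCas9_CR10 against KRAB_no_gRNA, for KRAB_CR4 against KRAB_CR10 and for the difference of the KRAB effects. DESeq2 also called 0 of the 10 in each. At an unadjusted p under 0.05 there was 1 value among the 90, SLC25A37 in dCas9_CR10 against KRAB_no_gRNA.

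TFRC encodes the receptor that takes up transferrin-bound iron in most cells. It read 1257, 1251 and 831 CPM in KRAB_no_gRNA libraries 1, 2 and 3, 1323, 1207 and 749 CPM in KRAB_CR4, and 1140, 1164 and 889 CPM in KRAB_CR10. The groups overlapped almost fully, with means of 1113 ± 244, 1093 ± 303 and 1064 ± 152 CPM (SD, n = 3 each). The dCas9 groups were at 1178 ± 254 CPM (dCas9_CR4) and 1070 ± 322 CPM (dCas9_CR10). The log2 fold change of KRAB_CR4 against KRAB_no_gRNA was -0.03, with a 95% interval from -0.70 to 0.65. This fit counts differences between library numbers as spread. With the number as a block over the 15 lentiviral libraries, the interval for TFRC was -0.23 to 0.16 around a log2 fold change of -0.03. Over the 8 pairwise and averaged comparisons, the bounds for TFRC reached -0.79 and 0.76 without the block and -0.32 and 0.29 with it, and those for STEAP3, the endosomal ferrireductase, -0.98 and 0.79 without and -0.56 and 0.34 with it. No member passed in either fit (edgeR). With the block, intervals lay wholly to one side of 0 in 3 of the 8 comparisons for SLC25A37, 2 for SLC25A38 and 1 for STEAP3, with adjusted p of 0.33 or above.

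The ferritin genes also lay close together between the groups. FTH1, the heavy chain with the ferroxidase activity of ferritin, read 599, 710 and 569 CPM in KRAB_no_gRNA and 579, 715 and 551 CPM in KRAB_CR4. FTL, the light chain that supports iron mineralisation in the shell, read 1035, 1122 and 1283 CPM in KRAB_no_gRNA and 1027, 1069 and 1256 CPM in KRAB_CR4. The groups overlapped for both genes. Over the 8 comparisons the log2 fold changes ran from -0.06 to 0.04 for FTH1 and from -0.06 to 0.07 for FTL, and the interval bounds were -0.36 to 0.33 and -0.36 to 0.37, or -0.22 to 0.18 and -0.26 to 0.27 with the number as a block. Fold changes of the 10 genes ran from -0.29 (STEAP3) to 0.32 (SLC25A37) on the log2 scale, both in dCas9_CR10 against KRAB_no_gRNA.

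SLC25A37 encodes mitoferrin, the importer of iron into the mitochondrion of erythroid cells. It read 65.5, 51.9 and 72.5 CPM in KRAB_no_gRNA, 81.4, 69.5 and 86.4 CPM in dCas9_CR10, and 79.2, 69.2 and 79.1 CPM in KRAB_CR10. The groups overlapped, since KRAB_no_gRNA library 3 lay above library 2 of the other groups named. The log2 fold change was 0.32 for dCas9_CR10 (edgeR adjusted p = 1) and 0.26 for KRAB_CR10 (adjusted p = 0.9987). With the number as a block they were 0.34 (95% interval 0.14 to 0.54, adjusted p = 0.431) and 0.29 (0.09 to 0.49, adjusted p = 0.33), still short of the threshold over all genes. With the library number as a term, a test of any difference between the 5 lentiviral groups gave an adjusted p of 0.65 for SLC25A37. That test called 0 of the 10 genes and 0.0491% of 14249 genes, and the test of any difference between all 6 groups called 0 of the 10 and 0.74% of 14720 genes (edgeR).

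The other members showed no called difference among these groups either. TFR2, a second transferrin receptor that binds transferrin and the erythropoietin receptor in erythroid cells, had group means from 127 to 142 CPM in the 5 lentiviral groups. SLC11A2, the divalent metal transporter that carries iron out of the endosome, ranged from 54.7 to 61.2 CPM. Group means of SLC25A38, the mitochondrial glycine carrier needed for haem synthesis, ran from 64.7 to 75.6 CPM, and those of ABCB10, an inner-membrane transporter that partners mitoferrin, from 229 to 256 CPM. IREB2, which encodes iron regulatory protein 2, had group means from 219 to 238 CPM.

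**Figure D2:**
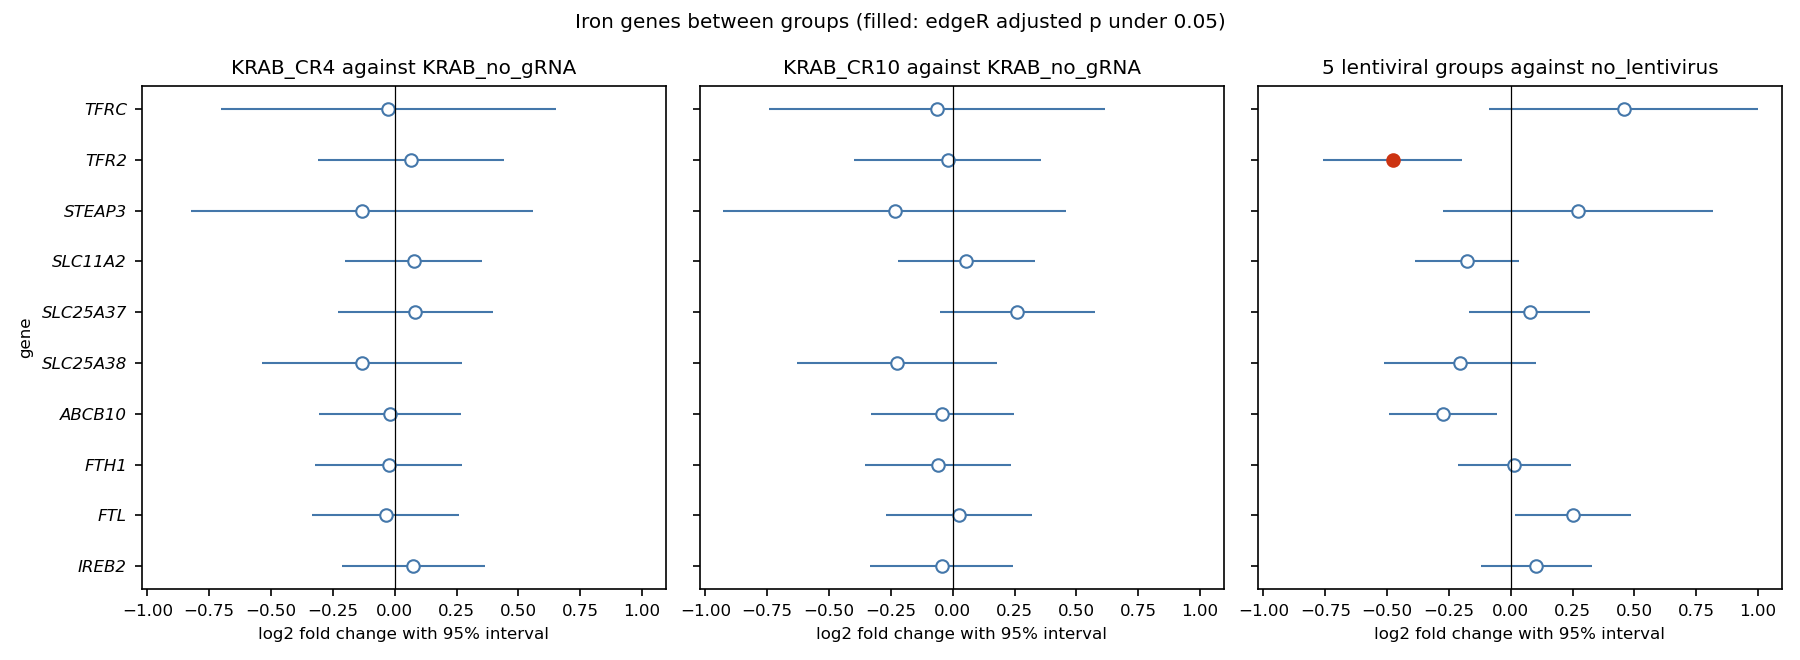
Log2 fold change of the 10 iron genes with 95% intervals (edgeR) for KRAB_CR4 and KRAB_CR10 against KRAB_no_gRNA and for the mean of the 5 lentiviral groups against no_lentivirus; filled points have an adjusted p under 0.05. The only filled point is TFR2 at -0.48 against no_lentivirus, and the intervals of TFRC and STEAP3 are the widest.

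The comparison with untransduced cells asks what lentiviral transduction and selection go along with. TFR2 was lower in the lentiviral cells, and it was the only called member. It read 163.0, 217.9 and 169.4 CPM in the 3 no_lentivirus libraries (mean 183 ± 30.0 CPM, SD, n = 3), and from 101.9 to 163.8 CPM in the 15 lentiviral libraries. The ranges met at a single point, KRAB_CR4 library 3 at 163.8 CPM. The mean of the 5 lentiviral groups lay below no_lentivirus by -0.48 ± 0.13 on the log2 scale (SE; edgeR adjusted p = 0.0219), which is a change of -28.2%. The 1 call among 10 members stands beside a share of 18.7% of all 14720 genes called in this comparison, made up of 7.55% higher and 11.2% lower.

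The TFR2 call rests on no_lentivirus library 2. Without that library the log2 fold change was -0.34 and the edgeR adjusted p 0.242, and the number of all genes called dropped from 2757 to 346. Scaling by library totals alone gave -0.45 with an adjusted p of 0.0539. In single groups TFR2 did not pass: the log2 fold change was -0.51 in KRAB_no_gRNA (adjusted p = 0.0871), -0.37 in dCas9_CR4 (0.217) and -0.54 in dCas9_CR10 (0.095), where 6.63%, 4.25% and 3.48% of all genes were called and 0 of the 10 members. Those comparisons share the no_lentivirus libraries. At an unadjusted p under 0.05 they held 2, 0 and 1 of the 10 members, and DESeq2 called 0 in each. With library number as a block TFR2 passed in KRAB_no_gRNA (-0.53, edgeR adjusted p = 0.0211) and dCas9_CR10 (-0.56, adjusted p = 0.023). That block also pairs the untransduced libraries by number. The data gave little ground for this, since only 5 of 15 such pairs correlated above 0.1. TFR2 also passed in both groups with the lentiviral libraries numbered 3 left out (edgeR adjusted p = 0.0244 and 0.0203).

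TFRC spread most among untransduced cells. It read 1109, 378 and 926 CPM in no_lentivirus libraries 1, 2 and 3, so that library 2 was the lowest of all 18. The mean of the lentiviral groups was higher by 0.46 on the log2 scale, with an interval from -0.09 to 1.00 that includes no difference (edgeR adjusted p = 0.23). Without no_lentivirus library 2 the log2 fold change was 0.11 (adjusted p = 0.841). STEAP3 followed the same order in these libraries, with 122.8, 47.4 and 89.7 CPM. FTH1 ran the other way, at 533, 743 and 555 CPM, and so did ABCB10, at 265, 332 and 279 CPM. SLC11A2 read 59.4, 72.4 and 65.4 CPM. In no_lentivirus library 2, TFRC and STEAP3 thus had their lowest value and TFR2, SLC11A2, ABCB10 and FTH1 their highest value of the 18 libraries.

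ABCB10 and FTL came near the threshold against untransduced cells. ABCB10 had a log2 fold change of -0.27 (95% interval -0.49 to -0.06, edgeR adjusted p = 0.0728). FTL was at 999, 926 and 933 CPM in no_lentivirus and at 909 to 1292 CPM in lentiviral libraries, a log2 fold change of 0.25 (0.02 to 0.48, adjusted p = 0.121). ABCB10 passed under DESeq2 (adjusted p = 0.0476). It also passed with library number as a block (edgeR adjusted p = 0.0303), though the untransduced libraries were not read as paired. Without no_lentivirus library 2 its log2 fold change was -0.18 (edgeR adjusted p = 0.45), and that of FTL 0.23 (adjusted p = 0.383). Blood-lineage markers differed in the same comparison. The 7 megakaryocyte markers summed to 19.3 to 30.8 CPM in no_lentivirus and 5.41 to 16.2 CPM in lentiviral libraries, and the 7 myeloid markers to 33.9 to 63.1 and 18.7 to 44.8 CPM. Among them the megakaryocyte markers ITGA2B and ITGB3 and the myeloid marker LYZ were called lower in the lentiviral groups. Without no_lentivirus library 2 the ITGA2B and LYZ calls were lost (edgeR adjusted p = 0.204 and 0.223), and ITGB3 still passed (adjusted p = 0.0281). Of the 12 erythroid markers 5 were lower and 0 higher, with and without no_lentivirus library 2. Of all genes 11.2% were lower with that library and 2.32% called without it. The 5 were GATA1, an erythroid transcription factor (-0.39, edgeR adjusted p = 0.00545), NFE2, HBE1, HBG1 and HBG2. The NFE2 call was lost in 7 of 18 fits that left out 1 library. HBE1, HBG1 and HBG2 were also lower in KRAB_CR4 and KRAB_CR10 than in KRAB_no_gRNA. HBG1 and HBG2 were not called in KRAB_no_gRNA, dCas9_CR4 or dCas9_CR10 alone against no_lentivirus. The erythroid markers, which include these globin genes, summed to 3195 to 4419 CPM in no_lentivirus and 2092 to 4103 CPM in lentiviral libraries. The part of these markers in the TFR2 difference was not tested.

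The clearest differences in the iron genes lay between library numbers. Over the 15 lentiviral libraries, with group as a term, 9 of the 10 genes differed between numbers, all but ABCB10 (edgeR, any difference between numbers), where 55.5% of 14249 genes did. Libraries numbered 3 were set against 1 and 2 with the knowledge from earlier results that they stand apart. Against number 1, 3 of the 10 genes were higher and 5 lower, where 27.2% of all genes were higher, 24.9% lower and 52.1% called in all. Against number 2, 2 were higher and 5 lower, where 23% were higher, 23% lower and 46% called in all. The median log2 fold change of the 10 genes was -0.17 against number 1, beside 0.04 for all genes tested, and -0.18 against number 2, beside 0.01. These comparisons share the libraries numbered 3, so they are not independent of each other.

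Among the uptake genes, the transferrin receptors moved apart. TFRC read 1257, 1439, 1323, 1359 and 1140 CPM in the libraries numbered 1, in the order KRAB_no_gRNA, dCas9_CR4, KRAB_CR4, dCas9_CR10 and KRAB_CR10. In the same order it read 1251, 1165, 1207, 1127 and 1164 CPM in those numbered 2 and 831, 932, 749, 723.5 and 889 CPM in those numbered 3. Every library numbered 3 lay below every library numbered 1 or 2. The means were 1303 ± 113, 1183 ± 47.5 and 825 ± 88.9 CPM (SD, n = 5 each), and number 3 was lower than number 1 (-0.63 ± 0.07 on the log2 scale, SE; edgeR adjusted p = 1.15e-06) and than number 2 (-0.51 ± 0.07, adjusted p = 1.64e-05).

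TFR2 went the other way. It read 125.5, 125.2, 121.0, 124.8 and 111.9 CPM in the libraries numbered 1 and 110.7, 143.9, 120.1, 101.9 and 122.9 CPM in those numbered 2. In those numbered 3 it read 150.6, 156.4, 163.8, 152.9 and 146.5 CPM, all above every other lentiviral library. Number 3 was higher than number 1 by 0.37 ± 0.07 on the log2 scale and than number 2 by 0.38 ± 0.07 (SE; edgeR adjusted p = 0.000203 and 0.000199). TFRC, TFR2 and SLC25A38 were the 3 of 10 genes whose libraries numbered 3 did not overlap the others, where 21.3% of all genes did not (12% below and 9.31% above).

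Taken as a ratio of counts within each library, which scaling between libraries does not touch, TFRC to TFR2 was 10.0 to 11.5 in number 1 and 8.10 to 11.3 in number 2. It was 4.57 to 6.07 in number 3. The untransduced libraries gave 6.81, 1.73 and 5.46, so their ratio was also below that of numbers 1 and 2 in all 3 libraries. These ratios compare counts of transcripts of unequal length and give no molar level.

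**Figure D3:**
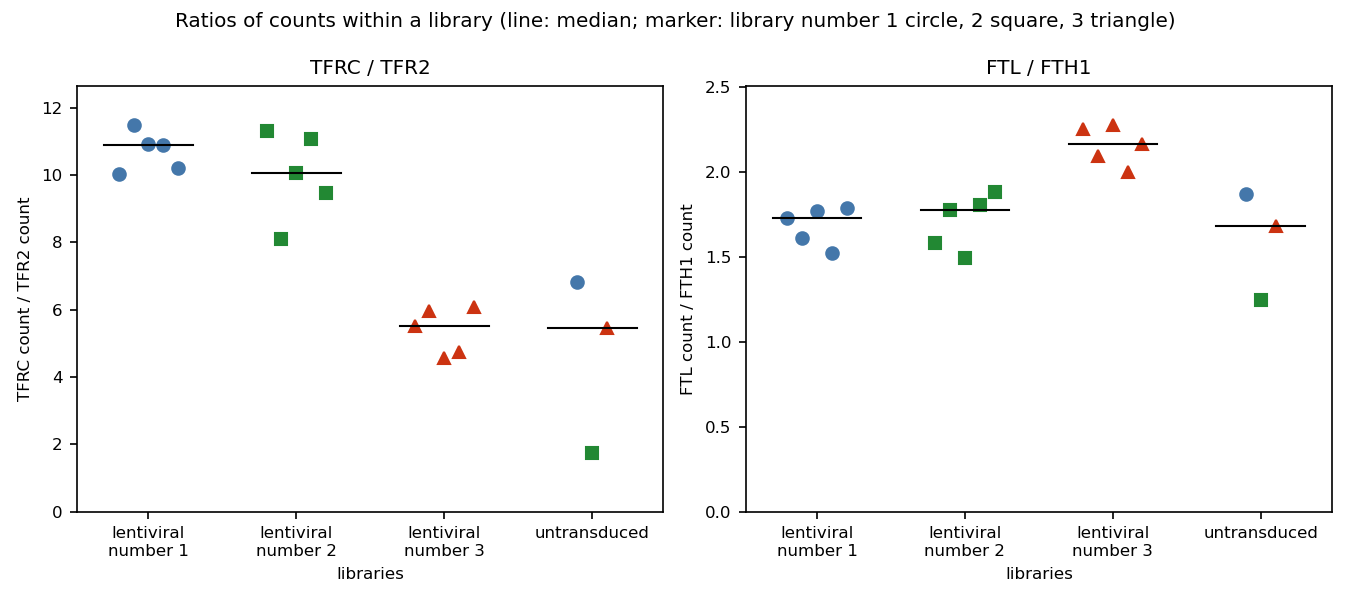
Ratio of counts within each library, TFRC to TFR2 (left) and FTL to FTH1 (right), for the lentiviral libraries by number (n = 5 each) and the untransduced libraries (n = 3); lines are medians. The number 3 libraries lie at 4.57 to 6.07 for TFRC to TFR2, below numbers 1 and 2, and at 2.00 to 2.28 for FTL to FTH1, above them.

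STEAP3, which reduces endosomal iron so that it can be exported, had the largest fold change of the 10 genes between library numbers. It read 127.9, 138.0, 121.5, 128.7 and 108.8 CPM in number 1, 122.6, 132.4, 118.0, 92.6 and 104.8 CPM in number 2, and 94.4, 68.1, 75.1, 61.1 and 79.5 CPM in number 3. Number 3 was the lowest library in each of the 5 groups, and across groups only KRAB_no_gRNA library 3 overlapped the others, through dCas9_CR10 library 2. The log2 fold changes were -0.70 ± 0.09 against number 1 and -0.58 ± 0.09 against number 2 (SE; edgeR adjusted p = 2.28e-06 and 2.67e-05). SLC11A2 was also lowest in number 3 in all 5 groups, by a smaller step, with means of 64.1 ± 4.89, 56.7 ± 1.61 and 53.6 ± 2.60 CPM in numbers 1, 2 and 3. It passed against number 1 (-0.22 ± 0.07, adjusted p = 0.00757) and not against number 2 (-0.07 ± 0.07, adjusted p = 0.434).

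The mitochondrial genes did not share a direction. SLC25A38 read 76.9, 83.3, 81.2, 75.5 and 68.1 CPM in number 1, 89.4, 83.1, 70.9, 67.8 and 69.1 CPM in number 2, and 60.4, 55.5, 54.7, 51.5 and 56.9 CPM in number 3. All libraries numbered 3 lay below all others, with log2 fold changes of -0.43 ± 0.07 against number 1 and also -0.43 ± 0.07 against number 2 (SE; edgeR adjusted p = 5.40e-05 and 8.25e-05). The iron importer SLC25A37 was higher instead, at 80.7 ± 5.54 CPM in number 3 against 71.1 ± 9.27 and 64.4 ± 7.82 CPM in numbers 1 and 2. It passed against number 2 (0.35 ± 0.07, adjusted p = 0.000721) and against number 1 (0.22 ± 0.07, adjusted p = 0.0164), the latter lost in 7 of 27 alternatives. ABCB10 passed in neither (-0.11, interval -0.27 to 0.05, and -0.18, interval -0.34 to -0.02, adjusted p = 0.227 and 0.0633).

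The ferritin chains differed from each other between numbers. FTL read 1035, 930, 1027, 909 and 1083 CPM in number 1, 1122, 1226, 1069, 1230 and 1127 CPM in number 2, and 1283, 1218, 1256, 1199 and 1292 CPM in number 3. Every library numbered 3 lay above every library numbered 1, and those numbered 2 overlapped both. FTL was higher in number 3 than in number 1 by 0.36 ± 0.07 on the log2 scale (SE; edgeR adjusted p = 0.000199) and did not pass against number 2 (0.13, interval -0.01 to 0.27, adjusted p = 0.132).

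FTH1 was highest in number 2, at 679 ± 47.4 CPM against 592 ± 13.1 CPM in number 1 and 579 ± 20.1 CPM in number 3 (SD, n = 5 each). It was lower in number 3 than in number 2 (-0.21 ± 0.06, SE; edgeR adjusted p = 0.0100), and against number 1 it had a log2 fold change of 0.00 with an interval from -0.13 to 0.14. The ratio of FTL to FTH1 counts was 1.52 to 1.79 in number 1, 1.495 to 1.89 in number 2 and 2.00 to 2.28 in number 3, and 1.87, 1.25 and 1.68 in the untransduced libraries. Per length, the medians were 2.42, 2.49 and 3.03 for numbers 1, 2 and 3 and 2.35 for untransduced cells. Ferritin genes have near-identical copies elsewhere in the genome, and how reads with several alignments were counted is not given in the sources used here. The copy FTH1P3 held 148 to 464 counts per library, and FTLP10 at most 8.

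IREB2 was lower in number 3, at 202 ± 8.53 CPM against 245 ± 17.7 in number 1 and 230 ± 18.3 CPM in number 2 (SD, n = 5 each). The log2 fold changes were -0.25 ± 0.07 and -0.17 ± 0.07 (SE; edgeR adjusted p = 0.00632 and 0.0499). The second of these was lost in 19 of 27 alternatives, while the first passed in all 27. Of the members with a stem-loop match, TFRC, SLC11A2 and IREB2, with matches in the 3′ UTR, were lower in number 3 than in number 1. Of FTH1 and FTL, with matches in the 5′ UTR, only FTL was higher. Against number 2 these members divided differently. TFRC, IREB2 and also FTH1 (-0.21, edgeR adjusted p = 0.0100) were lower there, and SLC11A2 and FTL were not called (edgeR adjusted p = 0.434 and 0.132). STEAP3 and SLC25A38, without a match, were lower in number 3 than in numbers 1 and 2. TFR2 and SLC25A37, also without one, were higher than in both.

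Between numbers 2 and 1 none of the 10 genes passed in edgeR, where 1.12% of all genes did. At an unadjusted p under 0.05 there were 3 members, FTL (0.23, adjusted p = 0.0778), FTH1 (0.21, adjusted p = 0.0791) and SLC11A2 (-0.16, adjusted p = 0.18). DESeq2 called 2, FTL and FTH1. The plot of fold changes between numbers shows number 2 closer to number 1 than to number 3 for TFRC, TFR2, STEAP3 and SLC25A38.

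**Figure D4:**
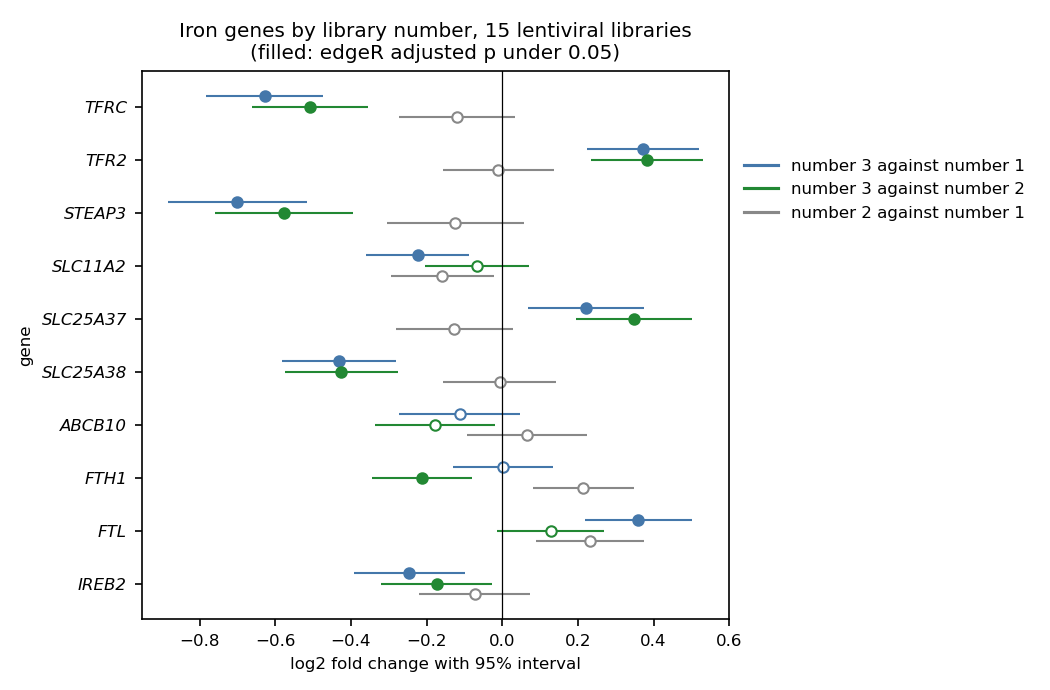
Log2 fold changes of the 10 iron genes between library numbers in the 15 lentiviral libraries, with 95% intervals (edgeR with group as a term); filled points have an adjusted p under 0.05. TFRC (-0.63 and -0.51), STEAP3 and SLC25A38 lie to the left and TFR2 and SLC25A37 to the right in the comparisons of number 3, and no point of number 2 against number 1 is filled.

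Lineage markers moved with the library number as well. The 7 megakaryocyte markers summed to 11.9 to 16.2 CPM in number 3 against 5.70 to 8.79 CPM in number 1 and 5.41 to 8.43 CPM in number 2, with GP9 at 0. The 7 myeloid markers summed to 36.9 to 44.8 CPM against 18.8 to 20.2 and 18.7 to 23.9 CPM. Of the 12 erythroid markers, 4 were lower in number 3 than in number 1 and 8 lower than in number 2, none higher. Over all genes 24.9% and 23% were lower, and 52.1% and 46% were called in either direction. The part of these markers in the differences between numbers was not tested.

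Other genes of iron handling, listed by function, were read in the same fits. Of 10 further tested genes of iron import and reduction, 3 were higher and 2 lower in number 3 than in number 1, and 2 higher and 3 lower than in number 2. These 5 of 10 calls in each comparison are near the 52.1% and 46% of all genes called. STEAP2, a metalloreductase related to STEAP3, was at 4.14 ± 0.66 CPM in number 3 against 2.03 ± 0.30 CPM in number 1 (1.05 ± 0.20 on the log2 scale, SE; edgeR adjusted p = 0.000186), the opposite direction to STEAP3 at a far lower count. The endosomal channel MCOLN1 was lower (-0.43 and -0.46 on the log2 scale against numbers 1 and 2). The median log2 fold change of this list was -0.12 against number 1 and -0.13 against number 2.

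Of 8 tested genes of iron export and systemic control, 1 was higher and 2 lower in number 3 than in number 1, and 1 was lower than in number 2, where 52.1% and 46% of all genes were called. SLC40A1 encodes ferroportin, the iron exporter, and was lower in number 3 (-0.26 ± 0.07 against number 1 and -0.33 ± 0.07 against number 2 on the log2 scale, SE; edgeR adjusted p = 0.00261 and 0.000374). Its 5′ UTR held a stem-loop match at chr2:189580667-189580683 on the minus strand, shown beside that of ALAS2, the erythroid enzyme that starts haem synthesis (chrX:55030947-55030963, minus strand), because both are messages of the pathway outside the 10 genes with the element near their start.
SLC40A1: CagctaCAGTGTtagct
ALAS2: CgtcctCAGTGCagggc

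Of 6 tested genes of iron sensing, 2 were lower in number 3 against number 1 and 3 against number 2, and 0 higher. Over all genes 24.9% and 23% were lower, and 52.1% and 46% were called. ACO1, which encodes iron regulatory protein 1, read 49.8 ± 2.16 CPM in number 3 against 73.0 ± 8.25 and 66.9 ± 7.41 CPM in numbers 1 and 2, with log2 fold changes of -0.51 ± 0.08 and -0.40 ± 0.08 (SE; edgeR adjusted p = 2.47e-05 and 0.000357). CUL1 and SKP1, shared subunits of the ubiquitin ligase that removes iron regulatory protein 2 and many other proteins, were lower than in number 2 by -0.46 and -0.28 on the log2 scale. Of 7 other messages listed for an iron-responsive element, 4 were lower against number 1 and 3 against number 2, and 0 higher. Both counts include SLC40A1, which is also in the export list above. The call of ALAS2 against number 1 and that of CDC14A against number 2 were each lost in 3 of 15 fits that left out 1 library. Of 5 tested genes of storage, release and iron chaperones, 2 were higher and 1 lower against number 1, and 0 passed against number 2. PCBP2, an iron chaperone that also binds RNA, was higher than in number 1 (0.34 ± 0.06, SE; edgeR adjusted p = 9.70e-05). With each lentiviral library left out in turn, an alternative chosen after seeing the data, STEAP2, MCOLN1, SLC40A1, ACO1, CUL1, SKP1 and PCBP2 kept the calls named here, and each of these list counts moved by at most 1.

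Several genes that work with the members were lower in lentiviral than in untransduced cells. NCOA4, the receptor that carries ferritin to the lysosome, read 534 to 803 CPM in no_lentivirus (664 ± 135 CPM, SD, n = 3) and 365 to 529 CPM in the 15 lentiviral libraries, without overlap (-0.68 ± 0.10 on the log2 scale, SE; edgeR adjusted p = 0.000911). ALAS2 read 60.2 ± 0.62 CPM in no_lentivirus and 21.7 to 41.9 CPM in lentiviral libraries, -0.93 ± 0.11 on the log2 scale (adjusted p = 0.000147). Lentiviral libraries lay wholly below untransduced ones in 4.24% of all genes. HEPH, a copper ferroxidase of iron export, was also lower (-0.78 ± 0.10, adjusted p = 0.000534), as was FBXL5, the iron-binding subunit of the ligase that removes iron regulatory protein 2 (-0.42 ± 0.11, adjusted p = 0.0155). By list, 3 of 10 import, 2 of 8 export, 1 of 5 storage and 1 of 6 sensing genes were lower and 0 higher, beside 11.2% of all genes lower and 18.7% called. Without no_lentivirus library 2 these counts were 1, 2, 1 and 0 lower and 0 higher, beside 2.32% of all genes called. The FBXL5 call rests on that library, since without it the log2 fold change was -0.23 and the edgeR adjusted p 0.265. NCOA4 (-0.52, adjusted p = 0.0208) and HEPH (-0.59, adjusted p = 0.00783) still passed without it, and ALAS2 passed with each of the 18 libraries left out in turn (edgeR adjusted p of at most 0.00246).

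Genes whose pattern over the 18 libraries was nearest to that of a member were found by the root mean square difference of centred log2 CPM over 9307 genes. For TFRC, which varied by 0.45 on that measure itself, these were HK2 (0.11), PWP2 (0.11) and ZC3H18 (0.12), each lowest in no_lentivirus library 2 as TFRC was. For FTH1 they were ATG12 (0.07), VAPA (0.08) and RP9 (0.09), where FTH1 itself varied by 0.14. For SLC25A37, which varied by 0.18, they were PXMP4 (0.11), HAUS5 (0.12) and, nearest at 0.09, a transcript for which the reference tables gave no symbol. The points share libraries and depth, so this is a description.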

How the data were processed

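RNA was sequenced from 18 libraries of K562 cells in 6 groups of 3. The authors deposited raw counts, 1 table per library with 40709 RefSeq accessions. The submitters' processing notes name the build hg19 and the tools SAMtools, Bowtie2, Picard, DESeq and R 3.1.2. What each did, how counts were made and how reads that align to several places were treated are not given in the sources used here. Per the labels' protocols, polyadenylated RNA was used and a Nextera transposase cut the cDNA, so strand is unknown and antisense partners cannot be told apart.

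All deposited counts were even (0 odd values), read as 2 per fragment. Symbols came from a RefSeq table of GRCh38.p14 (39324 accessions) and from GENCODE (526), covering 99.0% of counts; 859 accessions kept their own name. Counts were summed per gene and tested with the quasi-likelihood test of edgeR 4.0.16 (R 4.3.3) after filterByExpr and TMM. The group fit held all 18 libraries and 6 group means (14720 genes), and the number fit the 15 lentiviral libraries with group and number as terms (14249 genes). Benjamini-Hochberg adjustment ran over all genes tested, with a threshold of 0.05. CPM are TMM-scaled. SEs follow from the test statistic, and the 95% intervals from the total degrees of freedom of that test. Depths were 22805964 to 34032962 counts; reads carry no molecular identifiers, so error estimates cover libraries and counting, not molecules. Scripts were tested on simulated data, with changes planted in genes of all levels. For KRAB_CR4 against KRAB_no_gRNA 10.6% of 1.5-fold and 55.4% of 2-fold changes were called there. A gene that was not called may therefore still differ. No library repeated another (chi-square per degree of freedom within groups of 9.04 or more).

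Whether numbers pair libraries was checked by correlating deviations from group means over 10402 genes. All 30 same-number pairs of lentiviral libraries exceeded 0.1 (0.17 to 0.89), as did 16 of 60 pairs of unlike number. Those 16 all joined number 1 with number 2 and reached 0.65, and every unlike pair with number 3 was negative. The check thus set number 3 apart but did not separate number 1 from number 2, since their values overlapped. With this limit the numbers were read as pairing these libraries. With an untransduced library 5 of 15 pairs exceeded 0.1, and these were not read as paired. Alternatives were DESeq2 1.42.0, its size factors in edgeR, no filter, a stricter filter, halved counts, the replicate block and leaving out libraries; scaling by library totals, leaving out each lentiviral group, and leaving out each library for the lists of other iron genes were chosen after seeing the data. The members and gene lists were chosen with earlier results of these data known. All members were named, and up to 4 passing genes of each other list per comparison could be. Stem-loops were read from GENCODE transcripts on GRCh38. Values of some genes of the other lists are not reported here.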

Additional observations from a re-analysis of the deposited data

How the results depend on the processing

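Over 35 alternatives, 3170 values of the 10 genes were recomputed. Of these 3114 kept their side of the threshold with the direction of any call, 25 passed newly, 31 were lost, and 0 called values changed direction. Of 2714 values that passed in neither fit 275 changed sign. No scaling moved the median of all genes by over 0.1 on the log2 scale. Among the lentiviral groups 0 of the 10 genes were called under any alternative, including the replicate block and leaving out each library (0 to 0).

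For the mean of the 5 lentiviral groups against no_lentivirus, the 1 member called became 2 under DESeq2 and 2 with the replicate block over all 18 libraries (TFR2 and ABCB10), and 0 with library totals only. Leaving out libraries gave 0 to 2: 0 without no_lentivirus replicate 2, and 2 without no_lentivirus replicate 1 or KRAB_no_gRNA replicate 2. KRAB_no_gRNA against no_lentivirus went from 0 to 1 (TFR2) with the replicate block and with the lentiviral libraries numbered 3 left out, and ranged from 0 to 1 over libraries left out, 1 without no_lentivirus replicate 1. dCas9_CR10 against no_lentivirus went from 0 to 1 (TFR2) with the replicate block and without the libraries numbered 3. The block changed no other call in these comparisons. It also numbers the no_lentivirus libraries, which were not read as paired with the lentiviral ones.

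Between library numbers 2 and 1 the count of 0 became 2 under DESeq2 and 1 with no filter on low counts, without the group KRAB_CR4 or without the group KRAB_CR10, and 0 to 1 over libraries left out; each added call was FTL or FTH1. The number of all genes called there was 159, against 709 with DESeq2 and 864 with no filter. For number 3, 7 to 8 members were called against number 1 and 6 to 8 against number 2 over libraries left out. TFRC, TFR2, STEAP3 and SLC25A38 were called in both comparisons of number 3 in all 27 alternatives of each, with log2 fold changes of -0.72 to -0.56 for TFRC and 0.34 to 0.44 for TFR2 against number 1. The calls of SLC25A37 against number 1, SLC11A2 against number 1, FTH1 against number 2 and IREB2 against number 2 were lost in 7, 1, 2 and 19 of 27; the cause was not tested. Each gene had at least 1288 counts (2 per fragment) in every library. With halved counts the IREB2 call against number 2 was among those lost (-0.14, edgeR adjusted p = 0.0847).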

Other observations

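Of 16 tested genes of mitochondrial iron and iron-sulphur cluster assembly, 3 were higher and 3 lower in number 3 than in number 1 of the lentiviral libraries, and 2 higher and 4 lower than in number 2 (edgeR), where 52.1% and 46% of all genes were called. Against untransduced cells 3 of 16 were higher and 4 lower in the lentiviral groups, where 18.7% of all genes were called. Without no_lentivirus library 2, 0 of the 16 passed there, beside 2.32% of all genes, and 7 had an unadjusted p under 0.05 (edgeR).

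Of 9 tested genes of haem transport and breakdown, 3 were higher and 3 lower in number 3 than in number 1, and 2 higher and 3 lower than in number 2, again beside 52.1% and 46% of all genes. Against untransduced cells 1 of 10 was higher and 3 lower, beside 7.55% of all genes higher and 11.2% lower. Without no_lentivirus library 2, 0 were higher and 1 lower, beside 2.32% of all genes called. In number 3 against number 1, SLC48A1, a lysosomal haem transporter, was higher by 0.42 ± 0.07 on the log2 scale (SE, edgeR adjusted p = 5.91e-05). The biliverdin reductases BLVRA and BLVRB were higher there by 0.51 ± 0.08 and 0.40 ± 0.07 (edgeR adjusted p = 4.45e-05 and 0.000105). SLC46A1, which carries folate and haem, was lower in number 3 than in number 1 (-0.61 ± 0.10, edgeR adjusted p = 3.21e-05).

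The counts of 2 TFRC accessions split as 50.02% and 49.98% of the gene, and in single libraries the shares lay between 49.3% and 50.7%. The 3 STEAP3 accessions took between 29.3% and 37.1% each. The TFR2 accession NM_003227 took 57.7% to 61.0% and NM_001206855 the rest. The tables therefore give no evidence on which TFRC or STEAP3 isoform the cells express.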
